A study of Mus musculus with 7 samples.

Results

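Gene expression in mouse neural stem cells was compared between the 2 mutant genotypes of the series, labelled Tet-TMut and Tet-TFoCa (TMut and TFoCa below). The comparison uses 4 of the 7 RNA libraries, chosen by their genotype labels: TMut lines 1 and 2 and TFoCa lines 1 and 2. The other 3 libraries are from wild-type (WT) lines, whose values are given beside the comparison. All cells were at passage 1, and the design text assigns every library a line of its own. Strain, sex, age of the source and the way the lines were made are not given in the sources used here. The series title sets hydroxymethylation of DNA against its formylation and carboxylation. The design text calls TFoCa "Tet-FoCa", and the labels do not say which oxidation step each genotype affects.

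TET enzymes oxidise 5-methylcytosine in DNA, first to 5-hydroxymethylcytosine and then to 5-formylcytosine and 5-carboxylcytosine. The glycosylase TDG excises the last pair of these bases, and base excision repair restores an unmodified cytosine. 5-hydroxymethylcytosine is abundant in neural tissue, where it can persist as a base of its own. Neural stem cells self-renew and can give rise to neurons, astrocytes and oligodendrocytes. Sox2 and Nes mark them, while Notch, Wnt, Hedgehog and FGF signals regulate their maintenance and fate.

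Reads counted in genes numbered 41306668 and 33340167 in TFoCa 1 and 2 and 36351320 and 35632516 in TMut 1 and 2. Expression values below are normalized counts, which are gene counts divided by a size factor of the library, and they are always listed for line 1 and then line 2. They compare a gene between libraries, not 1 gene with another, since they are not scaled by gene length. Differences are log2(normalized count + 1) in TMut minus TFoCa, with the standard error (SE), from 1 limma model over all 7 libraries (n = 2 TMut, 2 TFoCa and 3 WT). "Rose" and "fell" stand for higher and lower in TMut than in TFoCa at a Benjamini-Hochberg adjusted p under 0.05 over the 18134 genes tested. On the first principal component, with 55.19% of the variance, TMut 1 and 2 scored 87.7 and 134.4, and the other 5 libraries lay between -53.7 and -37.1. TMut 2 therefore stood farther from TFoCa than TMut 1 did, and this recurs in many of the values below. The second component, with 22.57% of the variance, set TFoCa apart from WT. There TFoCa 1 and 2 scored -63.1 and -64.8, WT lay between 33.7 and 49.8, and TMut 1 and 2 scored -19.9 and 18.8.

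TMut lines had less RNA than TFoCa lines of many neural genes: 36 of 39 genes of neuronal differentiation fell, as did 16 of 20 of the ventral forebrain and GABAergic list, 26 of 38 synaptic genes and 18 of 30 Notch pathway genes. Examples, each with its log2 difference ± SE, are the proneural factor Neurog2 (-5.67 ± 0.81), Slc32a1 (-3.85 ± 0.38) and Dll3 (-2.46 ± 0.30). Members of other lists rose: 25 of 30 pluripotency genes, 25 of 31 epithelial genes, 26 of 42 replication genes and 32 of 38 genes of the respiratory chain, such as Pou5f1 (5.41 ± 0.65), Krt8 (2.28 ± 0.36), Ccne1 (1.84 ± 0.16) and Cox7b (1.22 ± 0.14). In TMut, 3141 genes (17.3% of those tested) were higher than in TFoCa and 3350 (18.5%) were lower, with the median log2 difference over all genes at -0.0019. For each of the 6491 called genes both TMut libraries lay on the same side of both TFoCa libraries. Over all genes tested, TMut libraries lay wholly above TFoCa libraries in 33.9% and wholly below in 33.5%, so a lack of overlap by itself is common here. Of the libraries left out in turn, TMut 2 moved the counts most: without it 1282 genes were higher and 1876 lower, and in a fit to the 4 libraries alone the counts were 1610 and 1809. Calls made also in each fit that leaves out 1 of the 7 libraries, and by edgeR, numbered 1155 higher (6.37%) and 1622 lower (8.94%). The median absolute log2 difference over genes was 0.241 between the TMut lines, 0.311 between the TFoCa lines and 0.507 between the genotype means.

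**Figure D1:**
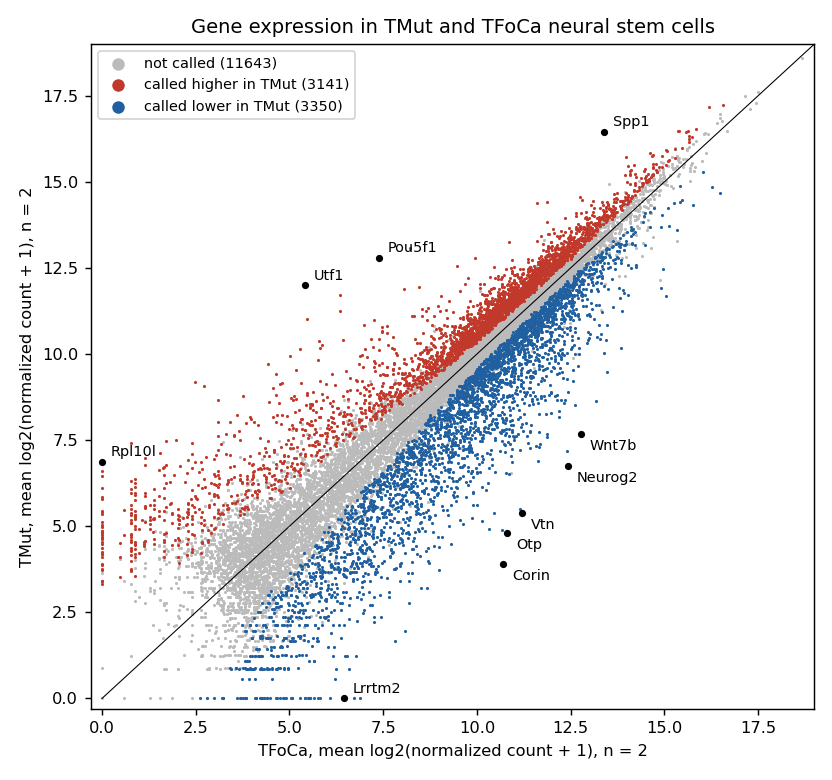
Mean log2(normalized count + 1) of every gene tested in TFoCa (x axis, n = 2) and TMut (y axis, n = 2), with the 3141 genes called higher in red, the 3350 called lower in blue and the rest in grey. Utf1 and Pou5f1 lie far above the line of equality, and Neurog2, Wnt7b, Otp, Vtn and Corin far below it.

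Gene lists by cell type and pathway are described by the number of tested members that rose and fell and by the median log2 difference of all tested members. The shares over all genes, 17.3% rising and 18.5% falling, are the background for these counts. Counts in brackets after a list give its numbers rising and falling when the named library was left out, wherever this moved a count by more than 1.5 times. They also give the list's median where it turned or moved by more than 1.5 times, and by more than 0.1. A fit without a TMut or TFoCa library leaves 1 library in that genotype, which is taken to vary like those of the other genotypes. Where 5 members or fewer changed in a direction, they are named unless not reported here; those without values were named after their values were seen. The members given with values have the smallest adjusted p among calls that survive leaving out each library, unless another reason is stated, so they show the firmest calls of a list and not its typical ones. Adjusted p (limma, Benjamini-Hochberg) of the 152 called genes that this naming rule takes ranged from 0.000905 to 0.0486. In bulk RNA, fewer cells of a type and less RNA per cell cannot be told apart, and this holds for every cell type marker below.

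**Figure D2:**
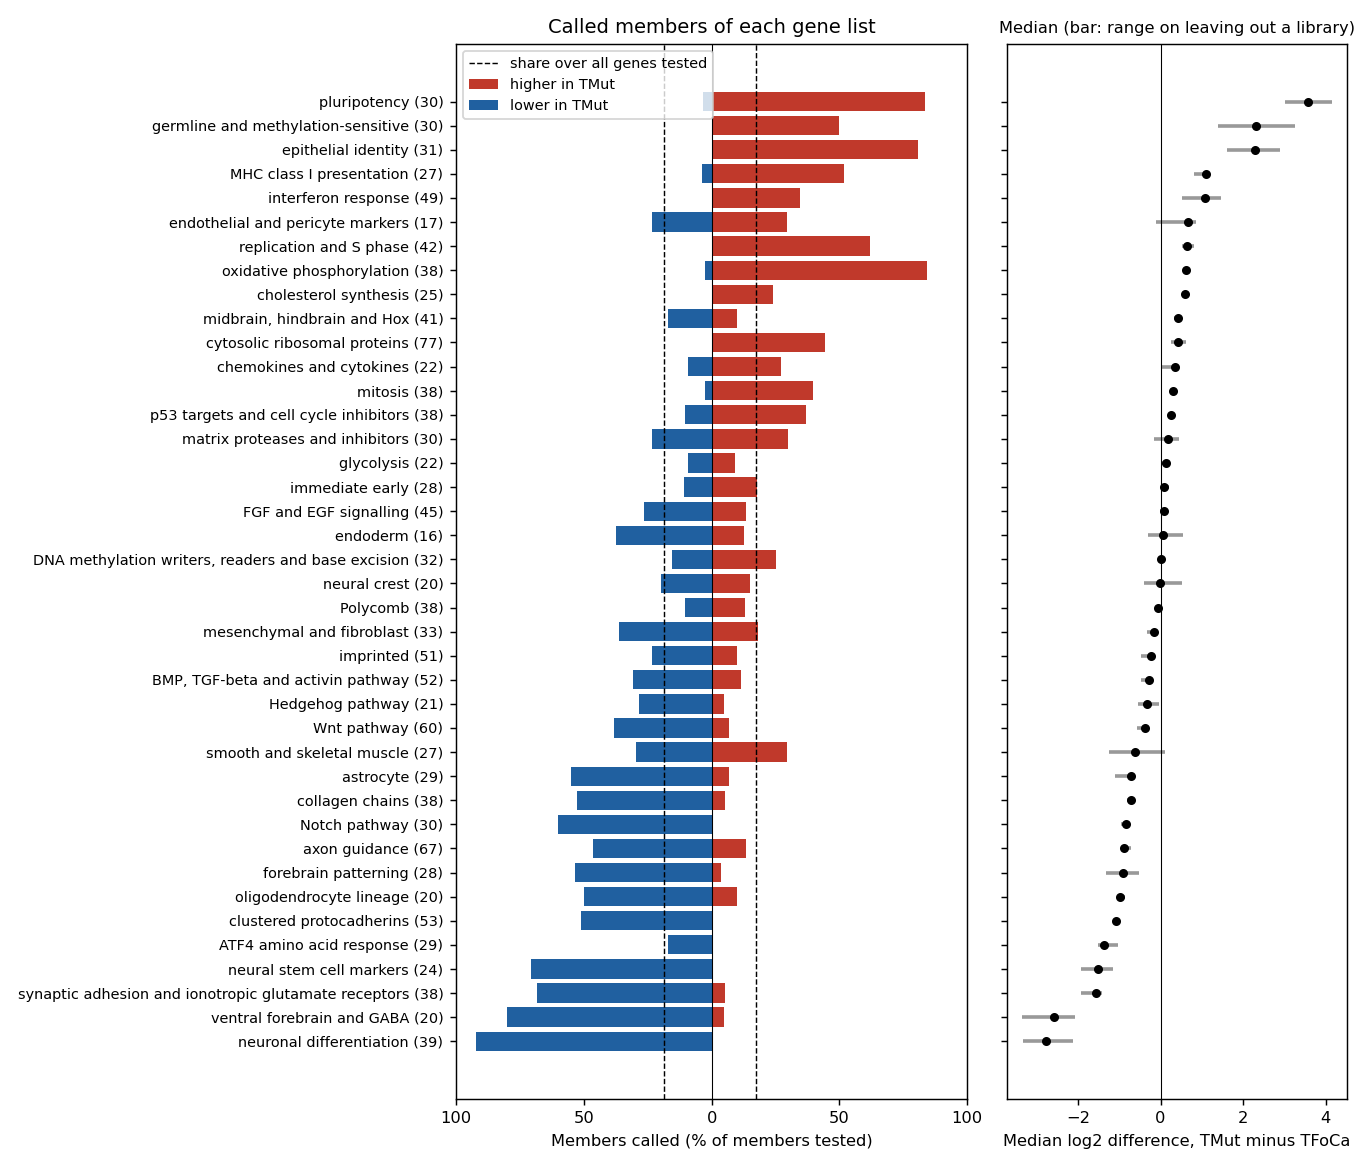
Share of the tested members of each gene list called higher (right, red) and lower (left, blue) in TMut, with the shares over all genes as dashed lines, and the median log2 difference of the members (points) with its range on leaving out each library (bars). Lists have at least 15 tested members, whose number stands in brackets. Neuronal and ventral forebrain lists lie at the bottom with medians of -2.77 and -2.57, and pluripotency, germline and epithelial lists at the top with medians from 2.28 to 3.58.

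Transcripts of the oxidation pathway itself differed by about 1 log2 unit or less. Tet1 was 1355 and 1367 in TFoCa and 1262 and 2779 in TMut, a log2 difference of 0.46 ± 0.31 (adjusted p = 0.275), with TMut 2 above the other 3 libraries. Without TMut 1 it passed the test, at 1.03 (adjusted p = 0.0027), but TMut is then TMut 2 alone and the error comes from the TFoCa and WT libraries. Tet2 was 4237 and 2117 in TFoCa and 1493 and 1364 in TMut (-1.07 ± 0.28, adjusted p = 0.0229); TFoCa 1 was high, and the call was lost in the fit to the 4 libraries (adjusted p = 0.0704), without TMut 1 (adjusted p = 0.0548) and without TMut 2 (adjusted p = 0.103). Tet3 was 7283 and 6159 in TFoCa and 5766 and 4119 in TMut (-0.46 ± 0.18, adjusted p = 0.0797) and among the alternatives run passed the test only without TMut 1, at -0.70 (adjusted p = 0.0213), again with TMut 2 as the 1 TMut library. Tdg, the glycosylase gene, was 3591 and 3842 in TFoCa and 2888 and 2886 in TMut (-0.36 ± 0.10, adjusted p = 0.0231). Its call was lost in 9 of 20 alternatives (adjusted p from 0.0518 to 0.1), among them leaving out TMut 1, TMut 2, TFoCa 2 and WT 2. RNA level says nothing of the activity of the encoded protein, and these values do not show what the mutations are. Tdg in WT was 4621, 4395 and 4718, above every mutant library. Tet2 in WT was 1526, 1564 and 1791, a little above both TMut libraries and below both TFoCa libraries. Against WT it differed by -0.19 in TMut (limma adjusted p = 0.601) and by 0.88 in TFoCa (limma adjusted p = 0.0742).

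Genes among the 12 largest rises taken by the naming rule are given first. Utf1, a chromatin factor of pluripotent cells, was 42.1 and 41.4 in TFoCa and 1653 and 10129 in TMut (6.58 ± 0.75, adjusted p = 0.0018), and TMut 2 was the highest of the 4. Dppa2, which acts in early embryonic gene activation, was 1.92 and 9.74 in TFoCa and 283 and 1180.2 in TMut (6.69 ± 0.85). L1td1, an RNA-binding protein gene derived from a LINE-1 element, was 68.97 and 26.8 in TFoCa and 988 and 4373 in TMut (5.56 ± 0.72). Platr10, a long non-coding RNA named for its link to pluripotency, differed by 6.35 ± 0.85, and Pla2g1b, a secreted phospholipase gene, by 5.58 ± 0.58. Zscan4c, a member of a cluster active in 2-cell embryos, was 3.83 and 0 in TFoCa and 76.02 and 208 in TMut, and its reads cannot be told from those of near-identical paralogs. With voom it was not called (adjusted p = 0.0537). The nucleoside transporter gene Slc28a1 was 3.83 and 1.22 in TFoCa and 99.1 and 321 in TMut, and AU015836 was 1.92 and 0 in TFoCa and 92.2 and 317 in TMut; both were near 0 in TFoCa. In these genes both TMut libraries lay above both TFoCa libraries, and TMut 2 was above TMut 1. Every WT library also lay above both TFoCa libraries: WT was 234, 311 and 113 for Dppa2 and 107, 243 and 122 for Slc28a1. In the same limma model each was lower in TFoCa than in WT (adjusted p from 0.00403 to 0.0136). Of these genes only Pla2g1b was also higher in TMut than in WT (1.70 ± 0.53, adjusted p = 0.0369).

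No reads of Rpl10l and Snai3 were counted in either TFoCa library, so their rises are given as limits, taking 3 reads over both lines as the floor of the group, for counting error only. Rpl10l, a germline retrocopy of Rpl10 whose reads may be shared with its parent, was 0 in TFoCa and 50.7 and 263 in TMut, at least 6.59 log2 units higher. Snai3, a Snail family repressor, was 0 in TFoCa and 48.4 and 154 in TMut, at least 5.96 log2 units higher. Sprr3, a gene of the cornified envelope of squamous epithelium, was 3.83 and 0 in TFoCa and 113 and 106 in TMut. Its TMut 1 and 2 were at about the same level, and WT had 1.57, 0 and 2.30. Rpl10l in WT was 78.5, 120 and 77.1, within the TMut range, and Snai3 in WT was 24.3, 31.1 and 4.60.

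Of the 12 largest falls, those of transcription factor genes are given first. Neurog2, which drives neuronal commitment, was 4375 and 6909.7 in TFoCa and 313 and 36.02 in TMut (-5.67 ± 0.81, adjusted p = 0.00295), and WT lay near TFoCa at 5376, 4769.8 and 4604. Otp, a homeodomain factor of hypothalamic neurons, was 1036 and 3056 in TFoCa and 132 and 4.80 in TMut (-6.00 ± 1.27). Myt1, a zinc finger factor of neuronal differentiation, was 2472 and 2091 in TFoCa and 191 and 9.60 in TMut (-5.65 ± 1.08). TMut 2 was the lowest library for all 3, by a wide margin from TMut 1. Ferd3l, a neural bHLH gene, was 203 and 66.9 in TFoCa and 0 in both TMut libraries, a log2 difference of at most -6.34. The unnamed gene model Gm37691 was 63.2 and 173 in TFoCa and also 0 in TMut, a log2 difference of at most -5.98.

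The others of the 12 follow. Corin, a transmembrane serine protease that processes natriuretic peptides, was 3587 and 777 in TFoCa and 16.1 and 12.01 in TMut (-6.81 ± 0.67), with TFoCa 1 well above TFoCa 2. Vtn, which encodes the matrix protein vitronectin, was 3229.9 and 1733 in TFoCa and 122 and 13.2 in TMut (-5.82 ± 0.84). Chodl, a lectin-type membrane protein gene, was 1254 and 2108 in TFoCa and 80.6 and 9.60 in TMut (-5.79 ± 0.80). Ncam2, a neural adhesion molecule, differed by -6.13 ± 1.04, Adra1a, an adrenergic receptor, by -6.13 ± 0.92 and Efcab1 by -5.48 ± 0.41. Atp13a5, a P5-type ATPase gene, was 317 and 36.5 in TFoCa and 4.61 and 0 in TMut (-5.53 ± 1.10). With voom it was not called (adjusted p = 0.083). Of these, Chodl and Adra1a in both TFoCa libraries also lay above WT. Chodl in WT was 271, 325 and 330.2. Adra1a was 239 and 208 in TFoCa and 91.0, 119 and 121 in WT. Neither difference passed the test (limma adjusted p = 0.0831 for Chodl and 0.501 for Adra1a). Vtn and Ncam2 were close to WT in TFoCa.

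Both genotypes had RNA of the defining neural stem cell markers in every library, and most markers of the list were lower in TMut. Of 24 neural stem cell markers, 0 rose and 17 fell, with a median log2 difference of -1.52 (2 and 16 without TFoCa 2). Sox2, the stem cell transcription factor, was 11738 and 14882 in TFoCa and 6546 and 6298 in TMut (-1.04 ± 0.15, adjusted p = 0.00307), against 17594, 22162 and 19998 in WT. Sox2, Nes, Vim and Pax6 are given here as defining markers and were named after their values were seen. Nes, the intermediate filament nestin, was 11475 and 9651 in TFoCa and 15124 and 11419 in TMut (0.32 ± 0.21, adjusted p = 0.255). Vim, vimentin, was 84912 and 88637 in TFoCa and 113661 and 101256 in TMut (0.31 ± 0.13, adjusted p = 0.104). The genotypes overlapped for Nes and not for Vim and neither gene passed the test. Pax6, a forebrain progenitor factor, was 1130.3 and 3998 in TFoCa and 758 and 359 in TMut (-2.02 ± 0.55), with the TFoCa lines far apart, and its call was lost in 5 of 20 alternatives (adjusted p from 0.0557 to 0.143), among them leaving out TMut 2 and TFoCa 2. By the naming rule, Slc1a3, the glutamate transporter of radial glia, was 6799.8 and 5183 in TFoCa and 1351 and 1376 in TMut (-2.12 ± 0.19, adjusted p = 0.00144). Ednrb, the endothelin B receptor, was 2629 and 4092 in TFoCa and 327 and 84.04 in TMut (-4.30 ± 0.55). Notch1, the receptor, was 6416 and 6824 in TFoCa and 3837 and 3327 in TMut (-0.89 ± 0.11). The summed level of the list was 200572 and 228045 in TFoCa and 182102 and 151108 in TMut, and no member was at 0 in both lines of a genotype.

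Genes of neuronal differentiation were lower in TMut almost throughout the list. Of 39, 0 rose and 36 fell, with a median log2 difference of -2.77, and the summed level was 150148 and 148746 in TFoCa and 49330.5 and 29552 in TMut. Ina, a neuronal intermediate filament, was 5232 and 4583 in TFoCa and 1636 and 1318 in TMut (-1.74 ± 0.13, adjusted p = 0.00116). Celf4, an RNA-binding protein of neurons, was 4546 and 2787 in TFoCa and 698 and 521 in TMut (-2.56 ± 0.24). Nova2, a neuronal splicing factor, was 6004 and 4931 in TFoCa and 1864 and 1263 in TMut (-1.83 ± 0.18). Tubb3 and Dcx, the tubulin and microtubule-binding protein that mark young neurons, were named after their values were seen. Tubb3 was 16662 and 16873 in TFoCa and 5475 and 2021 in TMut (-2.33 ± 0.39). Dcx was 6373 and 5641 in TFoCa and 1179 and 295 in TMut (-3.34 ± 0.52). In each of these genes TMut 2 was the lowest library. Of 38 genes of synaptic adhesion and ionotropic glutamate receptors, 2 rose (Gria3 and Slitrk2) and 26 fell, with a median log2 difference of -1.56 (1 and 24 without TMut 1, 1 and 19 without TMut 2). Lrrtm2, a postsynaptic adhesion protein gene, was 74.7 and 99.8 in TFoCa and 0 in TMut, a log2 difference of at most -5.60. Gria1, an AMPA receptor subunit, was 313 and 368 in TFoCa and 48.4 and 67.2 in TMut (-2.55 ± 0.24). Grik2, a kainate receptor subunit, was 752 and 579 in TFoCa and 121 and 74.4 in TMut (-2.78 ± 0.29). Slitrk2, a synaptic adhesion gene on the X chromosome, went the other way, with 518 and 393 in TFoCa and 939 and 927 in TMut (1.05 ± 0.21).

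More genes of forebrain identity fell than rose in TMut, in the ventral forebrain and GABAergic list and in the forebrain patterning list, whose counts moved more with the library left out. The ventral forebrain and GABAergic list is given first. Of 20 such genes, 1 rose (Lhx6) and 16 fell, with a median log2 difference of -2.57 (0 and 17 without TMut 1, 0 and 13 without TMut 2, 0 and 15 without TFoCa 2, 0 and 16 without WT 2, 0 and 16 without WT 3). Slc32a1, which loads GABA into vesicles, was 741 and 936 in TFoCa and 79.5 and 40.8 in TMut (-3.85 ± 0.38). Dlx2, a homeodomain factor of ventral forebrain progenitors, was 2802 and 2188 in TFoCa and 464 and 423 in TMut (-2.48 ± 0.31, adjusted p = 0.00218). Lhx6, a factor of interneurons from the medial ganglionic eminence, was 193 and 161 in TFoCa and 342 and 304 in TMut (0.87 ± 0.25), the member that rose, and its call was lost in 9 of 20 alternatives (adjusted p from 0.0526 to 0.0999), among them leaving out TMut 1, TMut 2, TFoCa 2, WT 2 and WT 3. Of 28 forebrain patterning genes, 1 rose (Vax2) and 15 fell, with a median log2 difference of -0.92 (0 and 15 without TMut 1, 0 and 6 without TMut 2, 0 and 22 without TFoCa 1, 4 and 8 without TFoCa 2, 0 and 11 without WT 3; median -0.53 without TFoCa 2). Emx2 was 834 and 819 in TFoCa and 225 and 172 in TMut (-2.07 ± 0.17). Otx1 was 2229 and 2168 in TFoCa and 389 and 192 in TMut (-3.00 ± 0.29). Barhl2 differed by -3.64 ± 0.39; all 3 encode homeodomain factors. Vax2, a factor of the ventral eye and forebrain, was 139 and 243 in TFoCa and 373 and 480.2 in TMut (1.20 ± 0.36) and lost its call in 8 of 20 alternatives (adjusted p from 0.0548 to 0.157), among them leaving out TMut 1, TMut 2, TFoCa 1 and WT 3. Of 41 midbrain, hindbrain and Hox genes, 4 rose (Gbx2, Hoxb7, Hoxc4 and Hoxc9) and 7 fell, with a median log2 difference of 0.43 (2 and 5 without TMut 1, 2 and 3 without TMut 2, 2 and 8 without TFoCa 1, 2 and 6 without TFoCa 2, 2 and 6 without WT 2). The shares lay under the background in both directions, and the median was above 0 although more members fell than rose. The lower ones included Lmx1b (2066 and 849.6 in TFoCa and 162 and 133 in TMut) and Lmx1a (-3.27 ± 0.55), factors of the roof plate and of midbrain dopaminergic progenitors, and Gbx2, which helps place the midbrain-hindbrain boundary, was higher (41.2 and 53.5 in TFoCa and 227 and 607 in TMut).

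Glial genes and protocadherins also fell more often than they rose. Of 29 astrocyte genes, 2 rose (Apoe and Cst3) and 16 fell, with a median log2 difference of -0.71 (median -1.10 without TFoCa 1). Mlc1, an astrocyte membrane protein, was 216 and 278 in TFoCa and 29.9 and 19.2 in TMut (-3.30 ± 0.28, adjusted p = 0.00144), where WT had 1354, 1318 and 1025, so that this gene was lower in TFoCa than in WT and lower again in TMut. Ttyh1, a membrane protein gene of the tweety family, was 5973 and 4228 in TFoCa and 854 and 461 in TMut (-3.00 ± 0.29), and Slc39a12, a zinc transporter, 76.6 and 36.5 in TFoCa and 0 in TMut, a log2 difference of at most -5.06. Cst3, the secreted protease inhibitor cystatin C, rose, with 5851 and 4528 in TFoCa and 9693 and 10157 in TMut (0.95 ± 0.13). Of 20 oligodendrocyte lineage genes, 2 rose (Bcas1 and Mobp) and 10 fell, with a median log2 difference of -0.97 (0 and 7 without TMut 2, 1 and 9 without WT 3). Nkx6-2, a homeodomain factor, was 504 and 461 in TFoCa and 85.2 and 56.4 in TMut (-2.78 ± 0.29). Mog, a myelin glycoprotein, was 122 and 99.8 in TFoCa and 11.5 and 15.6 in TMut (-2.95 ± 0.41). Cldn11, a claudin of myelin, differed by -3.74 ± 0.53. Bcas1 was 5.75 and 0 in TFoCa and 36.9 and 62.4 in TMut, higher in TMut at low levels, and lost its call without TMut 2 (adjusted p = 0.0767). Of 53 clustered protocadherins, adhesion molecules that give neurons distinct surface identities, 0 rose and 27 fell, with a median log2 difference of -1.08 (0 and 10 without TMut 2, 0 and 15 without WT 2, 0 and 17 without WT 3). Pcdhga2 was 519 and 348 in TFoCa and 151 and 110.5 in TMut (-1.71 ± 0.26). Pcdhb7 was 135 and 136 in TFoCa and 43.8 and 48.02 in TMut (-1.54 ± 0.29). Pcdhb13 was 22.99 and 40.2 in TFoCa and 0 and 2.40 in TMut. Pcdhb7 lost its call in the fit to the 4 libraries (adjusted p = 0.051), and alpha and gamma members share 3' exons, so their counts may hold each other's reads.

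**Figure D3:**
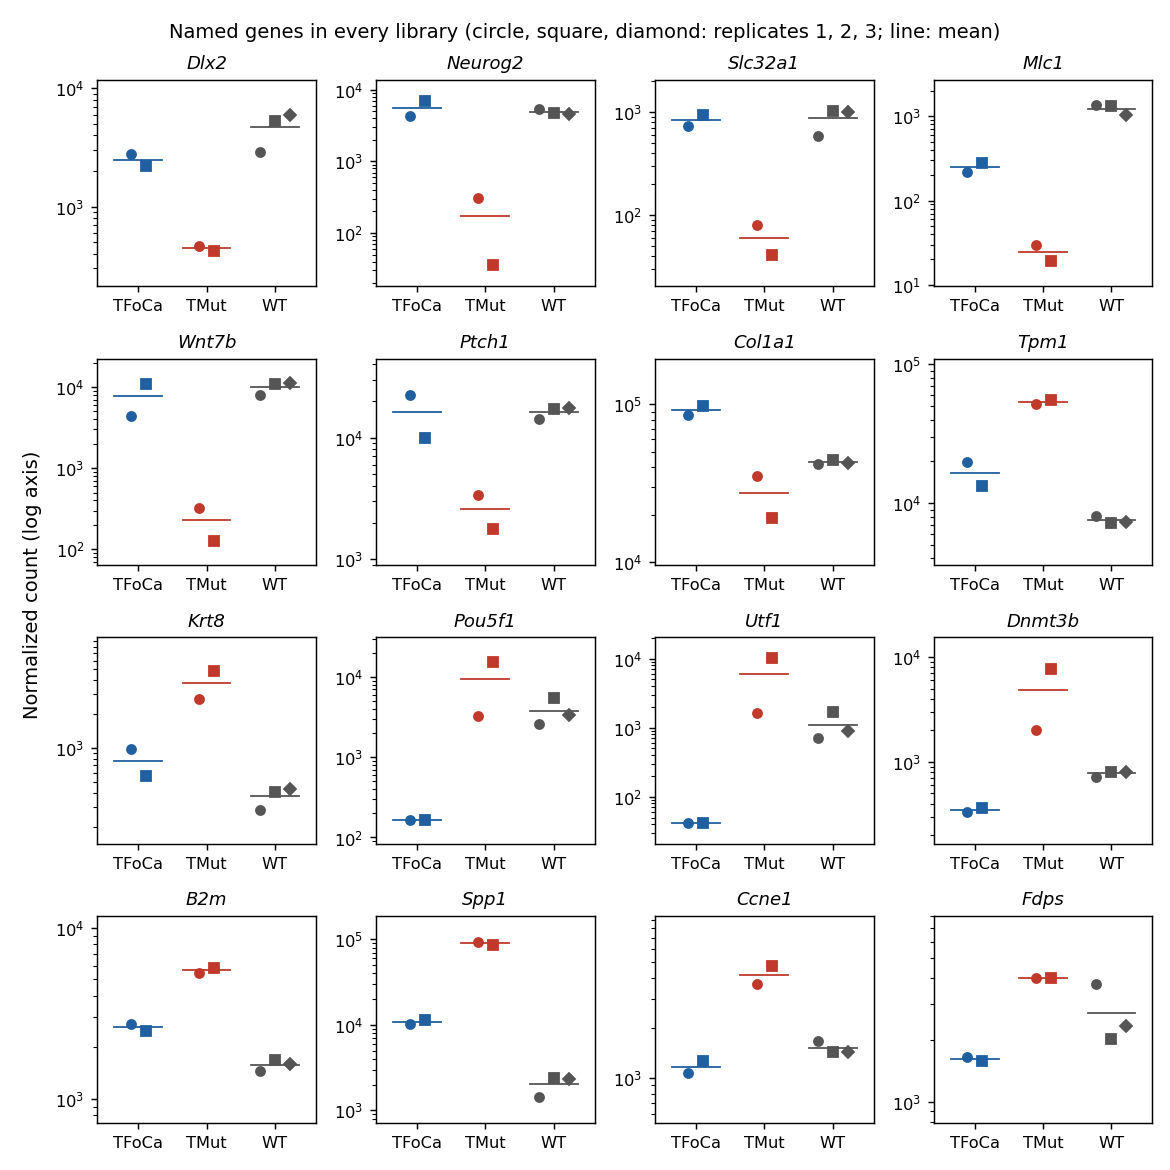
Normalized counts (log axis) of 16 genes named in the text in every library of TFoCa (blue), TMut (red) and WT (grey), with the mean as a line. TMut libraries lie below both TFoCa libraries in the 7 panels from Dlx2 to Col1a1 and above them in the 9 from Tpm1 on, and TMut 2 lies beyond TMut 1 in most.

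Notch, Wnt and Hedgehog, pathways that maintain neural stem cells, had more members that fell than rose, among them ligands, receptors and targets. Of 30 Notch pathway genes, 0 rose and 18 fell, with a median log2 difference of -0.83 (0 and 9 without TMut 2). The divergent ligand Dll3 was 3566 and 4495 in TFoCa and 958 and 551 in TMut (-2.46 ± 0.30). The coactivator gene Maml3 was 1587 and 1616 in TFoCa and 801 and 819 in TMut (-0.98 ± 0.12, adjusted p = 0.00187). Dtx4, a ubiquitin ligase of the pathway, differed by -1.52 ± 0.19. Of 60 Wnt pathway genes, 4 rose (Fzd4, Fzd5, Ror1 and Tcf7l1) and 23 fell, with a median log2 difference of -0.38 (0 and 15 without TMut 2). The ligand Wnt7b was 4449 and 10879 in TFoCa and 327 and 127 in TMut (-5.08 ± 0.51, adjusted p = 0.00153). Lef1, a nuclear effector, was 3177 and 2028 in TFoCa and 721 and 586 in TMut (-1.96 ± 0.22). Nkd1, a feedback inhibitor, was 5066 and 4093 in TFoCa and 1188 and 604 in TMut (-2.43 ± 0.28). Among the members that rose, Tcf7l1, a repressor among the TCF factors, was 2598 and 3166 in TFoCa and 4169.6 and 4699 in TMut (0.63 ± 0.13) and lost its call without TMut 2 (adjusted p = 0.0619). Of 21 Hedgehog pathway genes, 1 rose (Gas1) and 6 fell, with a median log2 difference of -0.32 (0 and 4 without TMut 2, 0 and 7 without TFoCa 1, 4 and 7 without TFoCa 2, 0 and 7 without WT 1, 0 and 6 without WT 2, 0 and 6 without WT 3; median -0.13 without TMut 1, -0.55 without TFoCa 1 and -0.04 without TFoCa 2). Ptch1, a receptor that is itself a target, and Gli1, the target transcription factor, were both lower: Ptch1 was 22356 and 9839 in TFoCa and 3368 and 1783 in TMut (-2.60 ± 0.40), and Gli1 was 6240.4 and 3930.1 in TFoCa and 1622 and 786 in TMut (-2.13 ± 0.33). Of the 4 TMut and TFoCa libraries TFoCa 1 was the highest for both and TMut 2 the lowest, with no overlap between the genotypes. Gas1, a co-receptor, was 1057 and 2547 in TFoCa and 3237 and 5425 in TMut (1.35 ± 0.44), the member that rose, and its call was lost in 10 of 20 alternatives (adjusted p from 0.0547 to 0.223), among them leaving out TMut 2, TFoCa 1, WT 1, WT 2 and WT 3.

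In the BMP, FGF and guidance lists, members fell more often than they rose. In each of these lists the share rising lay under the background and the share falling over it. Of 52 genes of the BMP, TGF-beta and activin pathway, 6 rose and 16 fell, with a median log2 difference of -0.29 (3 and 15 without TMut 1, 2 and 8 without TMut 2, 11 and 14 without TFoCa 1, 3 and 22 without TFoCa 2, 3 and 13 without WT 2, 3 and 15 without WT 3; median -0.47 without TFoCa 2). Bmp7, a ligand, was 2751 and 1971 in TFoCa and 792 and 568 in TMut (-1.79 ± 0.21). Inha, the inhibin alpha subunit, was 797 and 798 in TFoCa and 278 and 249 in TMut (-1.60 ± 0.15, adjusted p = 0.00144). Gdf6, a BMP-type ligand, rose from a low level, with 27.8 and 53.5 in TFoCa and 477 and 677 in TMut (3.84 ± 0.47). Of 45 FGF and EGF signalling genes, 6 rose and 12 fell, with a median log2 difference of 0.08 (7 and 7 without TFoCa 1), so the median was near 0 while more members fell. The receptor Fgfr2 was 3312 and 2332 in TFoCa and 706 and 565 in TMut (-2.14 ± 0.19), Fgf13, an intracellular FGF homologue, differed by -1.46 ± 0.17, and Dusp5, a phosphatase of nuclear ERK, was 425 and 463 in TFoCa and 1644 and 2009.8 in TMut (2.03 ± 0.21). Of 67 axon guidance genes, 9 rose and 31 fell, with a median log2 difference of -0.89 (2 and 27 without TMut 2). Sema5b was 4040.2 and 4337 in TFoCa and 1345 and 1085 in TMut (-1.79 ± 0.13, adjusted p = 0.00116). The semaphorin and VEGF receptor Nrp2 was 10718 and 10637 in TFoCa and 3739 and 4281 in TMut (-1.42 ± 0.11), and the netrin Ntn4 differed by -2.38 ± 0.25. Sema3c, a secreted semaphorin, was higher, with 685 and 475 in TFoCa and 1455 and 1656 in TMut (1.44 ± 0.24).

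More collagen genes fell than rose, while matrix protease genes went both ways. Of 38 collagen chain genes, 2 rose (Col12a1 and Col28a1) and 20 fell, with a median log2 difference of -0.72 (1 and 15 without TMut 1, 1 and 12 without TMut 2, 5 and 15 without TFoCa 1, 1 and 15 without WT 2). Col1a1, a chain of type I collagen, was 85788 and 97393 in TFoCa and 35453 and 19191 in TMut (-1.81 ± 0.25), where WT had 42183, 44222 and 42318, between the genotypes; Col5a2 was 3061 and 7376 in TFoCa and 872 and 687 in TMut (-2.62 ± 0.37). Col15a1, a basement membrane collagen, was 10020.1 and 10635 in TFoCa and 2404 and 2408 in TMut (-2.10 ± 0.10, adjusted p = 0.000905), and Col28a1 rose, with 69.9 and 88.8 in TFoCa and 334 and 279 in TMut (1.94 ± 0.36). Of 33 mesenchymal and fibroblast genes, 6 rose and 12 fell, with a median log2 difference of -0.17 (2 and 6 without TMut 2; median -0.34 without TMut 1), and the summed level was 206984 and 204563 in TFoCa and 215578 and 179726 in TMut. Tbx18, a transcription factor of mesenchyme and mural cells, was 1217 and 1046 in TFoCa and 109 and 43.2 in TMut (-4.01 ± 0.38). The receptor Pdgfrb was 8853 and 6829 in TFoCa and 3424 and 2836 in TMut (-1.32 ± 0.15). Foxc1 differed by -0.70 ± 0.11, while Ogn, a small matrix proteoglycan gene, was 317 and 151 in TFoCa and 972 and 1319 in TMut (2.37 ± 0.42). Of 30 matrix protease and inhibitor genes, 9 rose and 7 fell, with a median log2 difference of 0.19 (7 and 4 without TMut 1, 4 and 2 without TMut 2; median 0.08 without TMut 1, 0.45 without TFoCa 1 and -0.16 without TFoCa 2). Plau, the urokinase activator, was 405 and 349 in TFoCa and 1312 and 1880.1 in TMut (2.06 ± 0.24, adjusted p = 0.00182). The membrane metalloproteinase Mmp24 was 775 and 471 in TFoCa and 117 and 62.4 in TMut (-2.80 ± 0.34). Plau was also above WT in TFoCa (134, 108 and 110.4 in WT).

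Muscle genes moved in both directions, and crest genes were called at about the background shares. Of 27 smooth and skeletal muscle genes, 8 rose and 8 fell, with a median log2 difference of -0.62 (7 and 3 without TMut 2, 9 and 14 without TFoCa 1, 8 and 5 without TFoCa 2; median -0.24 without TMut 2, -1.26 without TFoCa 1 and 0.10 without TFoCa 2). The tropomyosin genes rose, Tpm1 with 19693 and 13228 in TFoCa and 52169.8 and 54983 in TMut (1.73 ± 0.18, adjusted p = 0.00158) and Tpm2 with 4079 and 4904 in TFoCa and 9053 and 9447 in TMut (1.05 ± 0.12). Myod1, the skeletal muscle determination factor, was lower, with 418 and 419 in TFoCa and 41.5 and 36.02 in TMut (-3.40 ± 0.47); WT had 78.5, 31.7 and 80.5, so TFoCa stood above both other genotypes. Of 20 neural crest genes, 3 rose (Foxd3, Ets1 and Snai2) and 4 fell (Tfap2c, Msx1, Sox9 and Gap43), with a median log2 difference of -0.01 (1 and 3 without TMut 2, 3 and 7 without TFoCa 1; median -0.39 without TFoCa 1 and 0.51 without TFoCa 2). Sox9, a factor of crest and of neural stem cells, was 4340.1 and 5937 in TFoCa and 2305 and 1939 in TMut (-1.26 ± 0.17). Gap43, a growth cone protein also abundant in neurons, was 5389.9 and 3365 in TFoCa and 1687 and 1090.1 in TMut (-1.65 ± 0.25). Ets1 was 2394 and 2235 in TFoCa and 4015 and 4565 in TMut (0.89 ± 0.12, adjusted p = 0.00254).

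Pluripotency genes made the largest rise of any list by its median. Of 30, 25 rose and 1 fell (Klf4), with a median log2 difference of 3.58 (26 and 0 without TMut 1, 25 and 0 without TFoCa 1), and the summed level was 8572 and 12544 in TFoCa and 32677 and 98637 in TMut, against 27198, 49713 and 33557 in WT. Pou5f1, the Oct4 transcription factor, was 166 and 166 in TFoCa and 3242 and 15569 in TMut (5.41 ± 0.65, adjusted p = 0.00195). The TFoCa lines were alike, TMut 2 was several times TMut 1, and WT had 2613, 5487 and 3351, close to TMut 1. Tdgf1, a co-receptor of Nodal, was 86.2 and 75.5 in TFoCa and 1634 and 6909 in TMut (5.36 ± 0.60). Nanog, named after its values were seen, was 156 and 201 in TFoCa and 1161 and 2315 in TMut (3.20 ± 0.39) against 1505, 2968 and 1960.2 in WT. For Nanog and Pou5f1 the WT range therefore overlapped the TMut range, and the low group was TFoCa. Klf4, a reprogramming factor that many differentiated cells also express, was the member that fell, with 1305 and 1203 in TFoCa and 643 and 813 in TMut (-0.79 ± 0.20). Its call was lost without TMut 1 (adjusted p = 0.0756) and without TFoCa 1 (adjusted p = 0.0584). What part cells in a pluripotent state have in these levels was not tested.

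In the germline and epithelial lists members rose in TMut and none fell. Of 30 germline and methylation-sensitive genes, many of them silenced by promoter methylation in somatic cells, 15 rose and 0 fell, with a median log2 difference of 2.31 (15 and 1 without TMut 1, 2 and 0 without TMut 2, 8 and 2 without TFoCa 1; median 1.39 without TMut 2 and 1.48 without TFoCa 1). Beside Rpl10l (above), Tex19.1, which restrains retrotransposons in germ and placental cells, was 9.58 and 58.4 in TFoCa and 320.2 and 1477 in TMut (4.78 ± 0.94), with the TFoCa lines apart and TMut 2 the highest. Calls in this list were thus mostly lost without TMut 2. Tex19.1 in WT was 187, 368 and 150, above both TFoCa libraries. The median log2 difference of the germline list from WT was 0.78 in TMut and -1.97 in TFoCa. Of 31 epithelial identity genes, 25 rose and 0 fell, with a median log2 difference of 2.28 (10 and 0 without TMut 2). Krt8, a keratin of simple epithelia that embryonic cells also express, was 971 and 568 in TFoCa and 2711 and 4822 in TMut (2.28 ± 0.36, adjusted p = 0.00379), against 279, 406 and 430.2 in WT. Cldn6 was 180.1 and 90.1 in TFoCa and 737 and 1771 in TMut (3.15 ± 0.50) and Cldn4 128 and 55.99 in TFoCa and 719 and 2564 in TMut (3.98 ± 0.64), both claudins of tight junctions. Epcam and Cdh1, adhesion molecules of epithelial and of pluripotent cells, were named after their values were seen: Epcam was 308 and 307 in TFoCa and 1178 and 4155 in TMut (2.84 ± 0.52). Cdh1 was 788 and 849.6 in TFoCa and 2498 and 7139 in TMut (2.37 ± 0.47). TMut 2 was the highest library for all of these. The summed level of the epithelial list was 7708 and 5645 in TFoCa and 17999.6 and 41021 in TMut, and the pluripotency list moved in the same libraries; the part of either in the other was not tested.

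Genes of DNA methylation and base excision repair moved in both directions, at shares within a few genes of the background. Of 32, 8 rose and 5 fell (among them Zbtb33, Ehmt1, Neil3 and Gadd45g), with a median log2 difference of 0.01 (5 and 1 without TMut 2, 8 and 3 without TFoCa 2, 8 and 3 without WT 1, 8 and 3 without WT 2, 8 and 3 without WT 3). Dnmt3b, a methyltransferase that places new methylation and is high in early embryonic cells, was 329.5 and 365 in TFoCa and 1996 and 7693 in TMut (3.49 ± 0.51, adjusted p = 0.00314), against 724, 805 and 799.5 in WT. Ung, which removes uracil from DNA, was 898 and 1294 in TFoCa and 2513 and 3306 in TMut (1.42 ± 0.20). Gadd45g, a stress and neurogenesis gene, was 4572 and 5619.5 in TFoCa and 2669.9 and 1822 in TMut (-1.20 ± 0.19). Of 38 Polycomb genes, 5 rose (Eed, Rbbp4, Rbbp7, Epop and Cbx6) and 4 fell (among them Phc3, Bcor and Asxl3), with a median log2 difference of -0.06 (7 and 1 without TMut 1, 2 and 0 without TMut 2, 5 and 7 without TFoCa 1, 5 and 2 without WT 2, 5 and 2 without WT 3). Epop, a PRC2 partner protein of embryonic stem cells, was 1139 and 1731 in TFoCa and 3895 and 8769 in TMut (2.06 ± 0.39). The histone chaperone Rbbp7 was 7921 and 7706 in TFoCa and 14818 and 15962 in TMut (0.98 ± 0.12). Asxl3 was 956 and 701 in TFoCa and 445 and 418 in TMut (-0.92 ± 0.19); Asxl3 lost its call without TMut 2 (adjusted p = 0.0514). Of 51 imprinted genes, which are expressed from 1 parental allele, 5 rose (Igf2r, Phlda2, Peg10, Impact and Cd81) and 12 fell, with a median log2 difference of -0.23 (2 and 6 without TMut 2; median -0.48 without TFoCa 1). Igf2r, the IGF2 clearance receptor, was 17626 and 15450.3 in TFoCa and 31071 and 34483 in TMut (0.99 ± 0.13, adjusted p = 0.0024). Magel2 was 4306 and 3084 in TFoCa and 1007 and 425 in TMut (-2.48 ± 0.37). Blcap was 5362 and 5184 in TFoCa and 2969 and 2716 in TMut (-0.89 ± 0.10). The Polycomb shares lay under the background in both directions, and the imprinted share lay under it for rises and slightly over it for falls.

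The interferon response genes that changed were all higher in TMut, as were those of antigen presentation but 1. Interferons act through STAT and IRF factors, and many of their target promoters hold a repeated core: GAAA, then any pair of bases, then GAAA. Promoter windows from RefSeq (GRCm38.p6, 250 bases before to 50 after the start) are shown for 3 genes, with each match to that core on either strand in capitals; a match on the minus strand reads TTTC, then any pair of bases, then TTTC. B2m, which encodes beta-2 microglobulin of MHC class I, was taken by the naming rule, while Gbp2, an interferon-induced GTPase, and Ifit3, an antiviral effector, were named after their values were seen. The windows lie at chr2:122147437-122147736, plus strand (B2m), chr3:142620413-142620712, plus strand (Gbp2) and chr19:34583279-34583578, plus strand (Ifit3).
B2m: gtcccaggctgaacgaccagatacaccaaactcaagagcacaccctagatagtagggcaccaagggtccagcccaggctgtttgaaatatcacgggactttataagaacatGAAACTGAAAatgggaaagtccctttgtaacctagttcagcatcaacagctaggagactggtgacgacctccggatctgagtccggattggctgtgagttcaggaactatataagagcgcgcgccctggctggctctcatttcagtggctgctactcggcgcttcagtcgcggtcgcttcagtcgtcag
Gbp2: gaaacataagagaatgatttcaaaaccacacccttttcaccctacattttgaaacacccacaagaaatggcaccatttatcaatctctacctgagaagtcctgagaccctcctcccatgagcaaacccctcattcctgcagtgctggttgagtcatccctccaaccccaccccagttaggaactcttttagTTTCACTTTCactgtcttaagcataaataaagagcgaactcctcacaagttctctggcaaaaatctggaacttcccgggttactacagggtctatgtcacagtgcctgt
Ifit3: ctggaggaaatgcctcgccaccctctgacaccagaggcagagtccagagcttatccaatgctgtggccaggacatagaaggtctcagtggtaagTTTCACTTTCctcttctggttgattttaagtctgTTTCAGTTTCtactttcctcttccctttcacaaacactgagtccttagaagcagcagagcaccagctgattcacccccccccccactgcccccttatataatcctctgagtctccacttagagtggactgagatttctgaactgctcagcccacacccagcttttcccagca
The core occurs 1 time in the B2m window, 1 time in that of Gbp2 and 2 times in that of Ifit3. It occurs in 3.44% of all 32851 windows in the RefSeq table. Counted by gene, in any of its windows, it occurs in 22 of the 38 tested interferon response genes that have a window. Of those that rose, 8 of the 14 with a window hold it. A gene can have more than 1 window, so the share of windows is not a background for these counts. Irf1 and Slfn2 (below), the interferon genes taken by the naming rule, have windows without the core. In the MHC class I list, 5 of 22 tested genes with a window hold it, and 3 of the 13 that rose. A match is a description of the sequence, and no factor binding was measured.

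B2m was 2754 and 2485 in TFoCa and 5423 and 5841 in TMut (1.10 ± 0.12, adjusted p = 0.00164), against 1445, 1691 and 1606 in WT. Gbp2 was 57.5 and 214 in TFoCa and 491 and 714 in TMut (2.40 ± 0.56), with TFoCa 2 above TFoCa 1, and its call was lost in the fit to the 4 libraries (adjusted p = 0.0505) and without TMut 2 (adjusted p = 0.0855). Ifit3 was 9.58 and 43.8 in TFoCa and 88.7 and 189.7 in TMut (2.59 ± 0.78), low in all 4 libraries, and its call was lost in 6 of 20 alternatives (adjusted p from 0.0592 to 0.181), among them leaving out TMut 2, TFoCa 1 and WT 2. Of 49 interferon response genes, 17 rose and 0 fell, with a median log2 difference of 1.08 (2 and 0 without TMut 2, 6 and 0 without TFoCa 1; median 0.52 without TFoCa 1). Irf1, an interferon-induced transcription factor, was 444 and 791 in TFoCa and 1807 and 1771 in TMut (1.59 ± 0.26). Slfn2, a Schlafen family gene, was 3.83 and 4.87 in TFoCa and 106 and 178 in TMut (4.70 ± 0.60), with 0 in all 3 WT libraries. Without TMut 2, when 1282 of all genes were called higher, this list had the 2 rises given. Of 27 MHC class I presentation genes, 14 rose and 1 fell (H2-T24), with a median log2 difference of 1.09 (6 and 0 without TMut 2, 10 and 0 without TFoCa 1, 17 and 0 without TFoCa 2, 11 and 0 without WT 1, 11 and 0 without WT 2, 10 and 0 without WT 3). Psmb10, an immunoproteasome subunit, was 265 and 431 in TFoCa and 1189 and 1399 in TMut (1.93 ± 0.24, adjusted p = 0.00216). Psme2, a proteasome activator, was 1995 and 1919 in TFoCa and 3157 and 3577 in TMut (0.78 ± 0.12). H2-T24, a non-classical class I gene at a low level, was lower, with 29.7 and 32.9 in TFoCa and 9.21 and 14.4 in TMut (-1.36 ± 0.45). It lost its call in 15 of 20 alternatives, among them leaving out any 1 library (adjusted p from 0.0674 to 0.147). Reads of H2 genes may be shared between near-identical members.

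The median of the chemokine genes lay above WT in both genotypes, and some members rose in TMut over TFoCa. Of 22 chemokine and cytokine genes, 6 rose and 2 fell (Cxcl14 and Il18), with a median log2 difference of 0.34 (6 and 1 without TMut 1, 3 and 1 without TMut 2, 8 and 0 without TFoCa 1, 4 and 1 without TFoCa 2, 6 and 1 without WT 1, 6 and 1 without WT 2, 6 and 1 without WT 3; median 0.19 without TMut 1 and 0 without TFoCa 2). Spp1, which encodes osteopontin, was 10181 and 11290.2 in TFoCa and 93244 and 86228 in TMut (3.06 ± 0.24, adjusted p = 0.00116), where WT had 1429, 2380.2 and 2357. Ccl2 was 240.4 and 421 in TFoCa and 2518 and 1910.1 in TMut (2.78 ± 0.38) and Ccl7 238 and 196 in TFoCa and 881 and 532 in TMut (1.66 ± 0.34), both attractants of monocytes, and Ccl2 in WT was 98.8, 57.05 and 105. Cxcl14 was lower, with 745 and 482 in TFoCa and 104 and 214 in TMut (adjusted p = 0.0145). It lost its call without TMut 1 (adjusted p = 0.0581) and without TFoCa 1 (adjusted p = 0.0612). Markers of immune cells were scarce: of 19 listed, 4 were in the table, and of these 2 rose (Laptm5 and Cd74) and 0 fell (1 and 0 without TMut 2). Cd74, the invariant chain of MHC class II, was 13.4 and 7.30 in TFoCa and 66.8 and 99.7 in TMut (2.92 ± 0.48), and the summed level of the 4 was 268 and 325 in TFoCa and 569 and 804 in TMut. The 4 were Cd68, Laptm5, Fcer1g and Cd74, while Ptprc, Aif1 and Csf1r, which define leukocytes and microglia, were not analysed here. The part of immune cells in the interferon and chemokine values was not tested.

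Members of the replication list rose in TMut and none fell. Of 42 genes in the replication and S phase list, 26 rose and 0 fell, with a median log2 difference of 0.65 (17 and 0 without TMut 2). Ccne1, cyclin E1 of S phase entry, was 1067 and 1262 in TFoCa and 3666 and 4724 in TMut (1.84 ± 0.16, adjusted p = 0.00144), against 1666, 1438 and 1432 in WT. Tyms, thymidylate synthase, was 1261 and 936 in TFoCa and 2681 and 2938 in TMut (1.37 ± 0.16). Rpa2, of the single-strand DNA binding complex, was 1146 and 1489 in TFoCa and 3333 and 3657 in TMut (1.42 ± 0.18). For Tyms and Rpa2 all WT libraries lay between the genotypes (1849, 1660.1 and 1798 in WT for Tyms). Of 38 mitosis genes, 15 rose and 1 fell (Prc1), with a median log2 difference of 0.29 (10 and 2 without TMut 1, 6 and 0 without TMut 2, 8 and 1 without TFoCa 1). Cdk1, the mitotic kinase, was 3477 and 2931 in TFoCa and 6419 and 6741 in TMut (1.04 ± 0.17). Cdc20, an activator of the anaphase-promoting complex, was 3932 and 4282 in TFoCa and 7001 and 9809 in TMut (1.01 ± 0.18). Mad2l1, of the spindle checkpoint, differed by 0.75 ± 0.12. Prc1, which bundles midzone microtubules, was lower, with 3736 and 4024 in TFoCa and 2964 and 2718 in TMut (-0.45 ± 0.10). It lost its call in the fit to the 4 libraries (adjusted p = 0.0679) and without TMut 2 (adjusted p = 0.0802). Of 38 p53 targets and cell cycle inhibitors, 14 rose and 4 fell (Rrm2b, Xpc, Cdkn1b and Rb1), with a median log2 difference of 0.25 (8 and 2 without TMut 2, 12 and 7 without TFoCa 1, 17 and 2 without TFoCa 2). Bax, a pro-apoptotic pore protein, was 5234 and 4788 in TFoCa and 10010.5 and 12571 in TMut (1.16 ± 0.14). Ccnd3, cyclin D3, was 10200.2 and 10792 in TFoCa and 19514 and 21378 in TMut (0.96 ± 0.10, adjusted p = 0.00157). Rb1, the retinoblastoma protein, was 1828 and 2170.2 in TFoCa and 1091 and 839 in TMut (-1.06 ± 0.16). Cdkn1a, the p21 inhibitor and a p53 target, was named after its values were seen and was 14509.6 and 15406 in TFoCa and 21273 and 23644 in TMut (0.58 ± 0.10).

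Genes of the respiratory chain rose by small amounts and nearly as a body. Of 38 oxidative phosphorylation genes, 32 rose and 1 fell (Uqcrfs1), with a median log2 difference of 0.62 (20 and 1 without TMut 2, 28 and 2 without TFoCa 1). Cox7b, of cytochrome c oxidase, was 1368 and 1104 in TFoCa and 2931 and 2797 in TMut (1.22 ± 0.14). Ndufa4 was 2196 and 1894 in TFoCa and 4026 and 3904 in TMut (0.96 ± 0.13, adjusted p = 0.00233). Ndufa2, of complex I, differed by 0.85 ± 0.11. Uqcrfs1, the Rieske protein of complex III, was lower, with 4669.6 and 4991 in TFoCa and 2948 and 3094 in TMut (-0.68 ± 0.10). For Cox7b and Ndufa4 the lines of a genotype lay close together. Of 77 cytosolic ribosomal protein genes, 34 rose and 0 fell, with a median log2 difference of 0.42 (8 and 0 without TMut 2, 10 and 0 without TFoCa 1, 63 and 0 without TFoCa 2, 14 and 0 without WT 2, 14 and 0 without WT 3; median 0.25 without TFoCa 1), a count that moved with 5 of the 7 libraries. Rpl41 was 21509.6 and 23709.8 in TFoCa and 43697 and 37663 in TMut (0.85 ± 0.13). Rps21 was 5526 and 7562 in TFoCa and 12816 and 12232 in TMut (0.95 ± 0.16). Rplp2 differed by 0.62 ± 0.12; reads of ribosomal protein genes may be shared with processed pseudogenes. Of 25 cholesterol synthesis genes, 6 rose and 0 fell, with a median log2 difference of 0.58 (1 and 0 without TMut 1, 2 and 0 without TMut 2, 3 and 0 without TFoCa 2, 15 and 0 without WT 1). Fdps, which makes farnesyl pyrophosphate, was 1656 and 1579.8 in TFoCa and 4006 and 4008 in TMut (1.31 ± 0.26, adjusted p = 0.00776), and in WT 3748, 2023 and 2339, with WT 1 apart. Of 22 glycolysis genes, 2 rose (Slc2a1 and Eno1) and 2 fell (Pfkp and Eno2), with a median log2 difference of 0.12 (0 and 1 without TMut 2, 1 and 2 without TFoCa 1, 2 and 1 without TFoCa 2, 4 and 2 without WT 1, 1 and 2 without WT 2; median 0.24 without TMut 2), shares under the background, and Eno2, the neuronal enolase, was 3005 and 3208 in TFoCa and 1881 and 1354 in TMut (-0.96 ± 0.18). Of 28 immediate early genes, 5 rose (Junb, Ier2, Klf2, Myc and Zfp36) and 3 fell (Nr4a2, Nr4a3 and Klf4), with a median log2 difference of 0.08 (1 and 2 without TMut 2, 1 and 3 without TFoCa 2; median 0.21 without TFoCa 1), with Klf2 at 195 and 239.8 in TFoCa and 860.4 and 2434 in TMut (2.74 ± 0.51) and Nr4a3 at 579 and 265 in TFoCa and 117 and 55.2 in TMut (-2.27 ± 0.45).

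The amino acid response controlled by the transcription factor ATF4 gave a count that turned on 1 WT library. Of 29 such genes, 0 rose and 5 fell (Ddit3, Slc7a11, Slc6a9, Vldlr and Fgf21), with a median log2 difference of -1.37 (0 and 2 without TMut 1, 0 and 1 without TMut 2, 0 and 3 without TFoCa 1, 0 and 1 without TFoCa 2, 0 and 27 without WT 1). The summed level of the list was 400971 and 414629 in TFoCa and 164445 and 197958 in TMut, and in WT it was 146604, 457910.2 and 473088. WT 1 was thus near TMut, and WT 2 and 3 near TFoCa, and the spread of WT enters the shared error of the model. Asns, asparagine synthetase, was named after its values were seen; it was 20647 and 22315 in TFoCa and 6049 and 8860.3 in TMut (-1.55 ± 0.76, adjusted p = 0.148), and 4847, 27830.3 and 27908 in WT. It passed the test in the fit to the 4 libraries (adjusted p = 0.0189) and without WT 1 (adjusted p = 0.00433). Ddit3, the stress factor CHOP and also named after its values were seen, was 3121 and 4083 in TFoCa and 691 and 839 in TMut (-2.23 ± 0.62). Its call was lost without TMut 1 (adjusted p = 0.0893), without TMut 2 (adjusted p = 0.0856), without TFoCa 1 (adjusted p = 0.057) and without TFoCa 2 (adjusted p = 0.0902). Vldlr, the lipoprotein and reelin receptor, was 7186 and 6159.9 in TFoCa and 1712 and 1143 in TMut (-2.25 ± 0.34).

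Markers of other cell types moved in part. Of 17 endothelial and pericyte markers, 5 rose (Pecam1, Tek, Emcn, Esam and Egfl7) and 4 fell (Cdh5, Abcc9, Anpep and Pdgfrb), with a median log2 difference of 0.66 (2 and 2 without TMut 2, 6 and 2 without TFoCa 1; median 0.39 without TMut 2 and -0.11 without TFoCa 2). Tek, the angiopoietin receptor, was 25.9 and 38.95 in TFoCa and 313 and 565 in TMut (3.69 ± 0.42). Emcn, an endothelial sialomucin, was 279.7 and 97.4 in TFoCa and 1035 and 1180.2 in TMut (2.74 ± 0.44), while Cdh5, the endothelial cadherin, was among those that fell. Pecam1, which embryonic stem cells express too and which was named after its values were seen, was 30.6 and 60.9 in TFoCa and 127 and 517 in TMut (2.54 ± 0.66). It lost its call with voom (adjusted p = 0.0636), in the fit to the 4 libraries (adjusted p = 0.0669), without TMut 2 (adjusted p = 0.0953) and without TFoCa 1 (adjusted p = 0.0865). The summed level of the endothelial and pericyte list was 24615 and 19294 in TFoCa and 16269.6 and 17011 in TMut. Of 16 endoderm genes, 2 rose (Gata4 and Gata6) and 6 fell, with a median log2 difference of 0.05 (5 and 4 without TMut 1, 1 and 3 without TMut 2, 4 and 6 without TFoCa 2; median 0.54 without TMut 1, -0.31 without TMut 2, 0.29 without TFoCa 1 and -0.20 without TFoCa 2), and the summed level was 25738 and 13829 in TFoCa and 8634 and 8786 in TMut. Lama1, a laminin of early basement membranes, was 9206 and 6189 in TFoCa and 3014 and 3685 in TMut (-1.18 ± 0.20, adjusted p = 0.00515). Cxcr4 was 2404 and 2201 in TFoCa and 854 and 425 in TMut (-1.93 ± 0.34), Pdgfra differed by -0.96 ± 0.17, and Gata4 was 95.8 and 144 in TFoCa and 326 and 669.9 in TMut (1.99 ± 0.37). Lama1, Cxcr4 and Pdgfra are also expressed outside endoderm, and the part of other cell types in the results was not tested.

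Genes of the sex chromosomes set the lines of 1 genotype apart from each other. Ddx3y, on the Y chromosome, was 94.8 and 3152 in TFoCa and 574 and 397 in TMut, and 370.3, 274 and 231 in WT. Kdm5d was 19.2 and 1492 in TFoCa and 279 and 98.5 in TMut, Uty 119 and 2139 in TFoCa and 769 and 591 in TMut and Eif2s3y 65.1 and 3225 in TFoCa and 1982 and 1606 in TMut. TFoCa 1 was the lowest and TFoCa 2 the highest of the 4 libraries for each of them, so none passed the test (adjusted p from 0.325 to 0.983). Leaving out a TFoCa line turned these genes: Ddx3y was -2.72 without TFoCa 1 and 2.32 without TFoCa 2, Kdm5d was -3.16 and 3.05, and Uty was -1.66 and 2.49. These 6 values passed the test (adjusted p from 0.00489 to 0.0152), each with TFoCa as 1 library. Eif2s3y was -0.85 without TFoCa 1, which did not pass, and 4.75 without TFoCa 2 (adjusted p = 0.00172). Xist, the RNA that silences an X chromosome, was 3.83 and 2.43 in TFoCa and 23.04 and 25.2 in TMut (2.62 ± 0.55), low in all 4 libraries, and lost its call in the fit to the 4 libraries (adjusted p = 0.0507) and without TMut 2 (adjusted p = 0.0515). Of 9 sex-linked genes, 1 rose (Xist) and 0 fell (0 and 0 without TMut 2, 1 and 3 without TFoCa 1, 5 and 0 without TFoCa 2). Without the genes of the X and Y chromosomes, 3018 genes were higher and 3222 lower.

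Set beside WT, the differences between the mutant genotypes were of several kinds. The comparisons of TMut and of TFoCa with WT share the WT libraries with each other and their mutant libraries with the direct comparison, so their values are given side by side and no overlap between them is tested. The WT mean lay nearer TFoCa than TMut for 86.4% of the genes lower in TMut and for 70.3% of the genes higher, against 67.1% of all genes tested. Neuronal genes had a median of -2.96 in TMut minus WT and -0.19 in TFoCa minus WT, and ventral forebrain and GABA genes -3.52 and -0.36. Pluripotency genes had the opposite layout, with 0.24 in TMut and -3.39 in TFoCa, and replication genes with -0.01 and -0.63. Epithelial genes lay on both sides of WT, with 1.26 in TMut and -1.14 in TFoCa, as did germline genes with 0.78 and -1.97. Matrix protease genes lay above WT in both, with 1.21 and 1.16, as did muscle genes with 1.09 and 1.49.

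**Figure D4:**
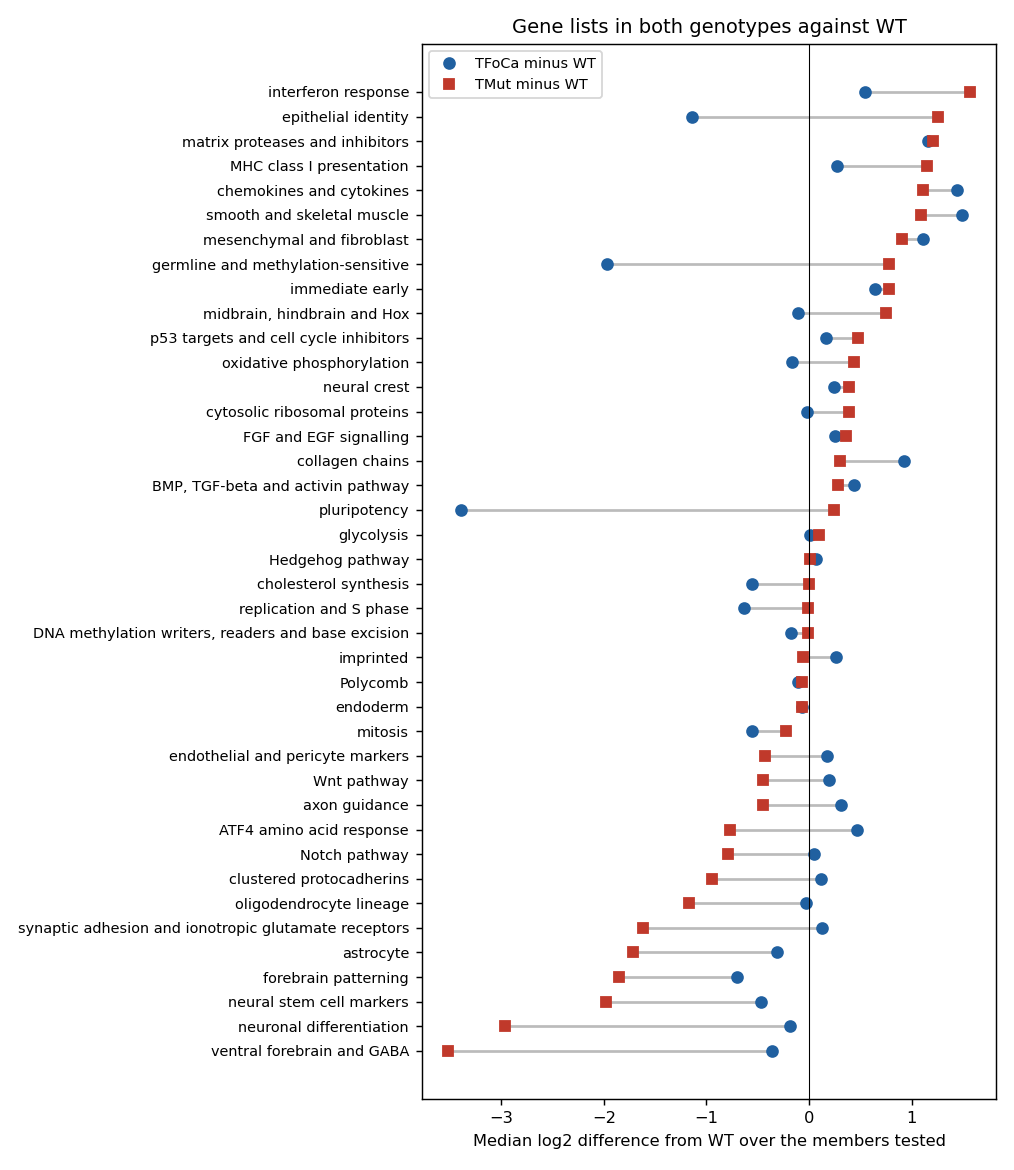
Median log2 difference from WT over the tested members of each gene list, in TFoCa (blue circles) and TMut (red squares), with a line joining both. Pluripotency genes lie -3.39 from WT in TFoCa and 0.24 in TMut, and neuronal genes -0.19 and -2.96; the genotypes share the WT libraries.

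For called genes the TMut lines differed from TFoCa in the same direction but not to the same extent. TMut 2 lay farther from the TFoCa mean than TMut 1 for 76.6% of the genes called higher and 77.7% of those called lower, against 66.0% of all genes tested. The median over pluripotency genes was 3.01 in TMut 1 and 4.15 in TMut 2, and over epithelial genes 1.61 and 2.89. Neuronal genes stood at -2.12 in TMut 1 and -3.34 in TMut 2. Oxidative phosphorylation genes were alike in both, at 0.59 and 0.65. With 2 lines of each genotype, a difference between lines cannot be told apart from other differences between the cultures.

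**Figure D5:**
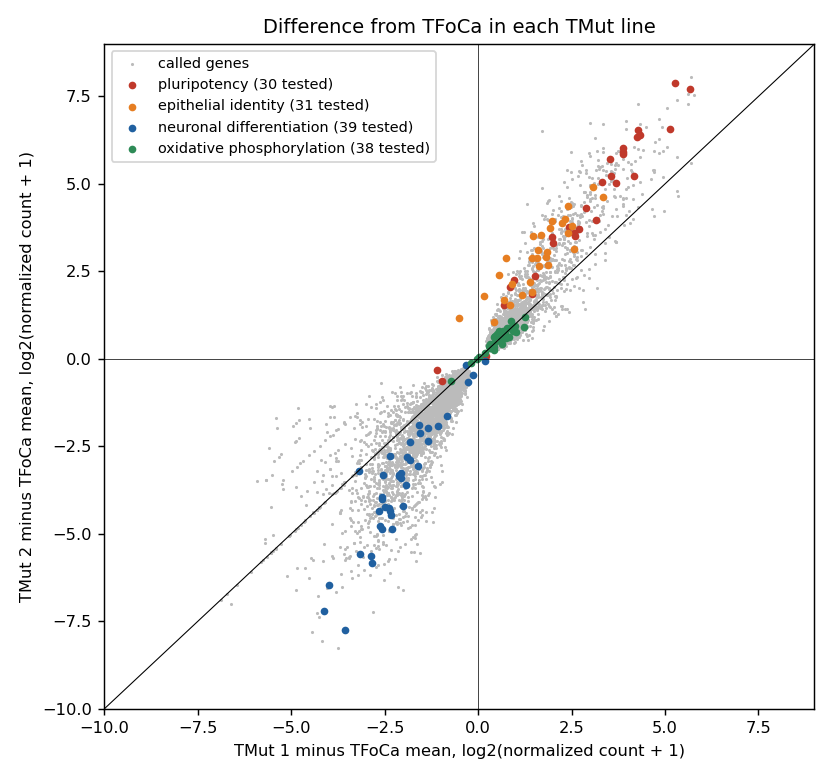
Difference of TMut 1 (x axis) and TMut 2 (y axis) from the TFoCa mean in log2(normalized count + 1), for all called genes (grey) and for the tested members of 4 lists, called or not (colours). Most pluripotency and epithelial genes lie above the line of equality and most neuronal genes below it, and oxidative phosphorylation genes lie near it; both axes share the TFoCa mean.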

How the data were processed

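RNA was sequenced from neural stem cells of 3 WT, 2 TFoCa and 2 TMut lines. The submitters' processing notes list STAR 2.7.3a, Trim Galore 0.6.5, DESeq2, SAMtools, featureCounts and the build mm39; the annotation, the settings and the use of strand are not given in the sources used here, so reads of overlapping and antisense genes may not be separated. The authors deposited 1 table of normalized counts (a signal: each count over its library's DESeq2 size factor) for 18145 genes, none with fewer than 71 reads over the 7 libraries.

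Each column divided by its value of 1 read gave whole reads for 100% of values within 0.001 read. In WT 2 the smallest value is 2 reads, and a check of the recovery that starts from the smallest value did not pass it. Count models (edgeR, DESeq2, voom) and TMM scaling therefore use the other 6 libraries, and the reads of WT 2 give only its depth. Reads in genes ranged from 33340167 to 62545457 per library, and 70.29% to 79.32% of counts from 1 to 20 were even, as if both mates were counted, in which case count models overstate precision and each floor would be weaker by 1 log2 unit.

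Genes with 10 or more normalized counts in at least 2 libraries were tested (18134). Log2(normalized count + 1) was fitted with limma 3.58.1 in R 4.3.3, with an intensity trend, in 1 model over 7 libraries (4 residual degrees of freedom); calls had a Benjamini-Hochberg adjusted p under 0.05. On 6 libraries, edgeR 4.0.16 called 2344 genes higher and 2483 lower, and DESeq2 1.42.0 called 2985 and 3225. Data were also simulated for this comparison (18085 genes), with 100 genes changed by 1 log2 unit and 99 by 2, in TMut alone. There limma recovered 20% of genes changed by 1 log2 unit and 67.7% of those changed by 2, with 13 false calls. In the real comparison 35.8% of genes were called, and the adjusted p depends on that share. The recovery and false calls of the simulation therefore do not carry over to it. The p-values measure the spread between lines, which nothing ties to separate animals.

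Named genes were Tet1, Tet2, Tet3 and Tdg; the 12 largest rises and 12 largest falls among genes called in every fit without 1 library and by edgeR, not overlapping, with a mean of 100 or more in the higher group; for each list up to 3 such members with the smallest adjusted p, and the first called against the majority; and Xist and Y-linked genes. A few genes that the rules take are not reported here, and the counts of lists and of values still hold them. The comparison, lists and rules were chosen with earlier results of these data known. Promoters come from RefSeq; windows were found for 76.8% of the genes called higher and 72.2% of those called lower, too few for a comparison of promoter content over called genes, which was void.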

Additional observations from a re-analysis of the deposited data

How the results depend on the processing

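The numbers of genes called higher and lower in TMut, 3141 and 3350, moved by more than 1.5 times in the fit to the 4 TMut and TFoCa libraries (1610 and 1809), at an adjusted p under 0.01 (1247 and 1578) and without TMut replicate 2 (1282 and 1876). Leaving out each library in turn gave 1282 to 2964 higher and 1876 to 3172 lower. Whether replicate numbers pair the libraries was not settled. Across genes, departures from each group's mean had a correlation of 0.032 between TFoCa and TMut libraries of the same number. Over all same-numbered pairs it was 0.019 to 0.185. The departures of 2 libraries in a genotype mirror each other, so the TFoCa and TMut pairs give 1 value, which cannot decide it. A fit with the replicate block called 2389 higher and 2642 lower. The count models, on 6 libraries without WT replicate 2, called 2334 to 2985 higher and 2314 to 3225 lower. Quantile normalization called 3333 higher and 2872 lower. There were 3633 values of named genes under the alternatives. Of these, 3515 kept their side of the threshold, 107 lost their call, 8 gained a call and 3 turned. A turn was counted only for values called in the main fit or in the alternative. Uncalled values that changed sign, such as Eif2s3y without TFoCa replicate 1, are among the 3515. Without TFoCa replicate 1 Ddx3y stood at -2.72, Kdm5d at -3.16 and Uty at -1.66. Without TFoCa replicate 2 they stood at 2.32, 3.05 and 2.49. The naming rule favours stable calls by construction; over all called genes 42.8% kept their call in each fit without 1 library and by edgeR. Genes with few reads are limited by depth, and groups at 0 allow only the limits given. The causes were not tested.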
